A study of Homo sapiens with 12 samples.

Results

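The genes described here are 10 non-collagen components of the extracellular matrix: tenascin C (TNC), thrombospondins 1 and 2 (THBS1 and THBS2), SPARC, fibronectin (FN1), fibrillins 1 and 2 (FBN1 and FBN2), versican (VCAN), elastin (ELN) and lysyl oxidase (LOX). They were chosen by name from the 22784 gene symbols of the expression table, and all 10 had a row. The cells were SK-UT-1, an established human uterine leiomyosarcoma line, a malignant tumor of uterine smooth muscle. All libraries came from this 1 line, treated for 48 h with the vehicle DMSO, with 5 µM JQ1 or with 5 µM I-BET 762, and no second line or untreated culture entered the comparison. Both compounds are BET inhibitors, which keep the bromodomains of BET proteins from binding acetylated histones. Values were analysed for 3 DMSO, 4 JQ1 and 3 I-BET 762 libraries of total RNA. Nothing in the labels says that they came from separate cultures, so each p-value sets a difference against the spread between these libraries, which may be technical.

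Matrix proteins of this kind fall into several roles. Matricellular proteins, among them tenascins, thrombospondins and SPARC, are secreted and alter how cells attach and signal, without forming the main scaffold. Fibronectin forms the fibrils on which other matrix assembles, while fibrillins and elastin build elastic fibers, lysyl oxidase cross-links elastin and collagen, and versican is a large hyaluronan-binding proteoglycan. In uterine smooth muscle and its tumors, the amount of matrix contributes to the stiffness of the tissue.

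Each library held 35564586 to 39658989 reads on genes, recovered as whole numbers from the normalized values. The values are normalized counts, that is, reads divided by the size factor of a library, which ranged from 0.9101 to 1.0989. A count of 3 reads, taken as the floor of detection, corresponded to 2.73 to 3.30 normalized counts. A gene was tested where at least 3 libraries reached 10 normalized counts, which left 14839 genes. Of the 10 matrix genes, TNC, THBS1, SPARC, LOX, FN1, FBN1 and FBN2 passed, and THBS2, VCAN and ELN did not. The labelled cell type was checked against its markers. The smooth muscle genes ACTA2 and CALD1 were at 7071 ± 225 and 9439 ± 376 normalized counts in DMSO (SD, n = 3). They were the highest of the smooth muscle markers, and the other tested ones had DMSO means from 4.02 (SYNPO2) to 2324 (SMTN). Among these, CNN1, LMOD1 and DES were at 95.4, 160 and 187. The smooth muscle regulator MYOCD never exceeded 1 read, and MYH11 was not analysed here. The hormone receptors ESR1 and PGR reached at most 2 and 4 reads.

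The sequences upstream of the start site are shown for the 4 matrix genes that JQ1 lowered past the threshold and for FN1, which rose, so that the promoters of genes moving in opposite directions can be read side by side. Each run is the 250 bases before the RefSeq start (assembly GRCh38.p14), written 5′ to 3′ on the strand of the gene. They lie at chr9:115118158-115118407 (minus strand), chr15:39580829-39581078 (plus strand), chr5:151686916-151687165 (minus strand), chr5:122078260-122078509 (minus strand) and chr2:215436069-215436318 (minus strand), in that order below. Capitals mark matches to the GC box GGGCGG or the TEAD-type motif CATTCC on either strand.
TNC: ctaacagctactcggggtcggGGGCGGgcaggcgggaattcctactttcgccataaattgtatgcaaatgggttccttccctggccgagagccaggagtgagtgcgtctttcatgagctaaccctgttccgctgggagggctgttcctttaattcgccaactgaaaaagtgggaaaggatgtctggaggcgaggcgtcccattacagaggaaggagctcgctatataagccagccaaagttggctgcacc
THBS1: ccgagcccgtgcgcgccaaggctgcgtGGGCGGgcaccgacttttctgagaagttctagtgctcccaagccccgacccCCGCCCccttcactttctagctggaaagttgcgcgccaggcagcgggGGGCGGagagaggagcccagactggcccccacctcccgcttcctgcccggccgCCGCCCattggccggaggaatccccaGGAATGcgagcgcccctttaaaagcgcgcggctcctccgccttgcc
SPARC: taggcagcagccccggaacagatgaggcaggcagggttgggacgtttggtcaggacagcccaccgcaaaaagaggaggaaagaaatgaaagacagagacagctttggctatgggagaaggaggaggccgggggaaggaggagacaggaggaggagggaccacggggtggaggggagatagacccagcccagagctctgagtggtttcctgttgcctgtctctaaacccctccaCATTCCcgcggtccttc
LOX: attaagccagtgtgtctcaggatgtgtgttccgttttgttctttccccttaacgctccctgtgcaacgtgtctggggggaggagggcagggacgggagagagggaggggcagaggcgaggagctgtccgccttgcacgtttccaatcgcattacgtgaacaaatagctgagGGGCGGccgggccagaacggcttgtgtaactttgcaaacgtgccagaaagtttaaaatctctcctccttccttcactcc
FN1: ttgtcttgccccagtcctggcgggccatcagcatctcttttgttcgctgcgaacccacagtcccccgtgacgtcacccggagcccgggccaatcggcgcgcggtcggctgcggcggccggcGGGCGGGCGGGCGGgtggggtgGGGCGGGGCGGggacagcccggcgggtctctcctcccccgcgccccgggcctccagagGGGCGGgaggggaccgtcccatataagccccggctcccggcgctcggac

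In the runs shown, FN1 held 6 GC boxes, of which several overlap one another, THBS1 held 4, TNC and LOX held 1 each, and SPARC held none. The TEAD-type motif was found once in THBS1, at position -46 from the start, and once in SPARC, at -17. Windows that also took the first 50 transcribed bases were searched for all genes in the RefSeq promoter table, which holds 9 of the 10 matrix genes. In these windows FBN1, which was not called, also held 1 TEAD-type motif, at -58, and THBS2 held 2, while FBN2, which rose, held 4 GC boxes and VCAN 1. LOX had further windows at other RefSeq starts, not printed above, which held neither a GC box nor a TEAD-type motif. Of 35116 windows, 45.0% held a GC box and 14.0% a TEAD-type motif. The AP-1-type motif TGANTCA, in 7.71% of windows, was in none of the windows of the 9 genes, and the TATA box TATAAA, in 11.5% of windows, was found only for THBS2. The FN1 window was 76.7% and the THBS1 window 70.0% G or C, against a median of 58.7% over all windows, and the TNC window was at 57.3%. These matches describe letters and not bound sites.

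The comparison of each inhibitor with DMSO asks how BET inhibition changed these transcripts. A gene was called changed when limma gave a Benjamini-Hochberg adjusted p under 0.05 and the fold change exceeded 1.5. With JQ1, TNC, THBS1, SPARC and LOX fell and FN1 and FBN2 rose, while FBN1 did not pass. With I-BET 762, TNC, THBS1 and LOX fell and FN1 and FBN2 rose, while SPARC and FBN1 moved by less than 1.5-fold. Over all tested genes, 22.8% were called lower and 13.3% higher with JQ1, and 17.9% lower and 8.96% higher with I-BET 762. The 7 tested matrix genes are a small chosen list and FBN2 passed the filter only through the treated libraries, so these counts are no evidence about matrix genes as a class. In these bulk libraries, fewer cells that express a gene and less of its RNA per cell cannot be told apart.

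**Figure D1:**
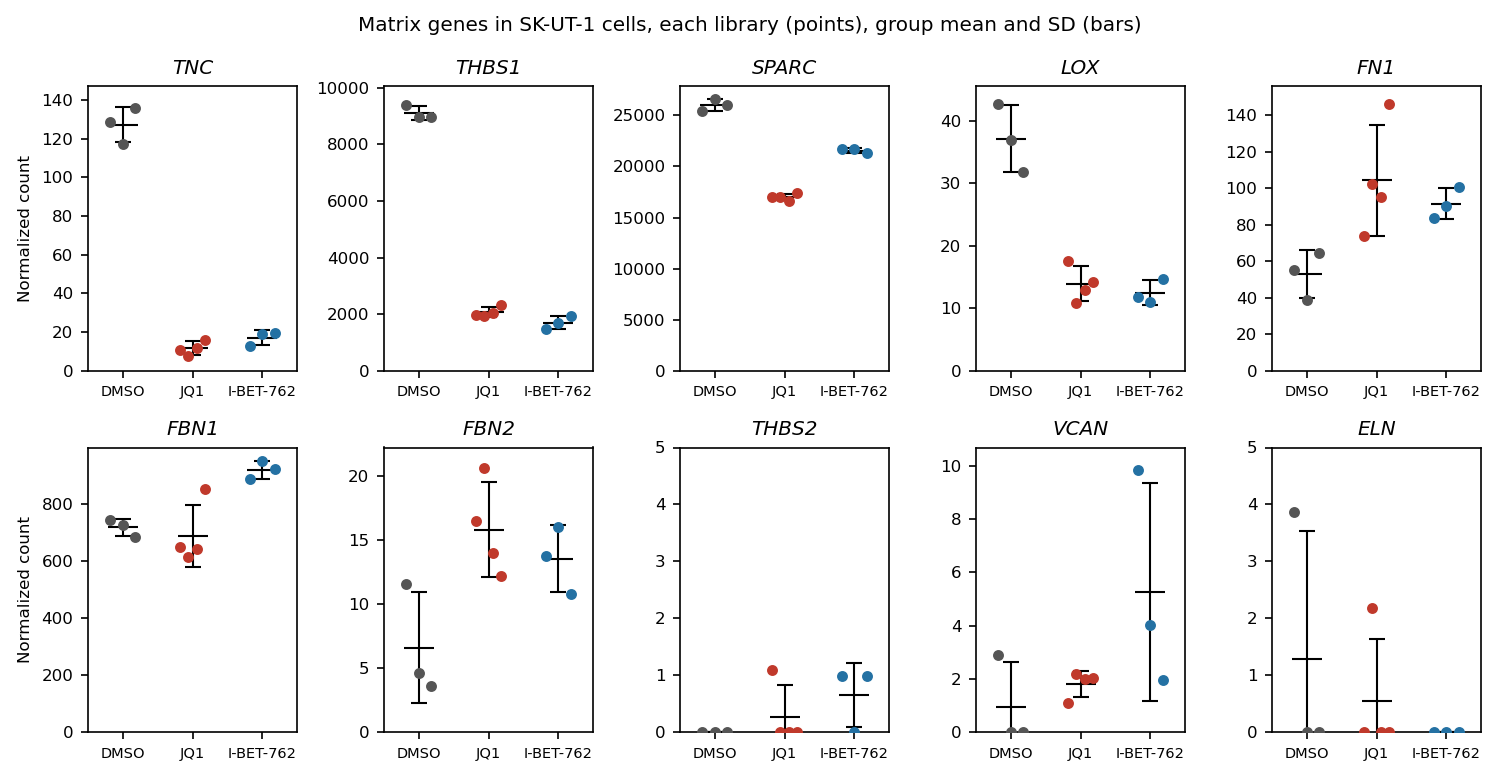
Normalized count (linear axes from 0) of each of the 10 matrix genes in every library, by group. Points are libraries, horizontal marks are group means and bars are SD. TNC, THBS1, SPARC and LOX are lower in every treated library than in any DMSO library, FN1 is higher in every treated library, and THBS2, VCAN and ELN stay below 10 normalized counts.

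Gene positions below are those of Gencode V44 on GRCh38. TNC, an adhesion-modulating glycoprotein of wounds and tumor stroma (chr9:115019575-115118207, minus strand), showed the deepest fall of the 7 tested genes. Its normalized counts were 129, 117 and 136 in the DMSO libraries, 10.99, 7.62, 12.01 and 16.2 with JQ1, and 12.8, 19.0 and 19.7 with I-BET 762. Every treated library was far below every DMSO library, and the treated groups overlapped each other. The mean fell from 127 ± 9.19 (SD, n = 3) to 11.7 ± 3.55 (n = 4) with JQ1, 10.9-fold lower, and to 17.2 ± 3.81 (n = 3) with I-BET 762, 7.41-fold lower. On the log2(normalized count + 1) scale used by limma, the differences were -3.38 ± 0.26 (SE, adjusted p = 8.19e-09) and -2.84 ± 0.28 (adjusted p = 2.74e-07). Of the tested genes, 144 had a lower log2 fold change than TNC with JQ1 and 141 with I-BET 762. What remained was 7 to 16 reads per JQ1 library and 13 to 20 per I-BET 762 library, above the floor of 3.

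THBS1, a matricellular protein that binds CD47 and can activate latent TGF-beta (chr15:39581079-39599466, plus strand), fell from a much higher level. Its normalized counts were 9375, 8972 and 8957 in DMSO, 1982, 1949.7, 2061 and 2329 with JQ1, and 1495, 1696 and 1936 with I-BET 762. No library of one group overlapped those of another: DMSO was highest, JQ1 lower and I-BET 762 lowest. The mean was 9101 ± 237 in DMSO (SD, n = 3), 2080.4 ± 172 with JQ1 (n = 4) and 1709 ± 221 with I-BET 762 (n = 3), so 22.9% and 18.8% of the DMSO level remained. The log2 differences were -2.13 ± 0.08 with JQ1 (SE, limma adjusted p = 1.25e-12) and -2.42 ± 0.08 with I-BET 762 (adjusted p = 2.96e-12). Counting by strand was not stated, and FSIP1 on the opposite strand shares 4.89% of the exon length of THBS1 and was at 37.3 to 79.2 normalized counts, and THBS1-AS1, not analysed here, shares 4.49%. The part of opposite-strand reads in the THBS1 values was not tested.

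SPARC, a collagen-binding matricellular protein (chr5:151661096-151686975, minus strand), had by far the highest level, per length as well, and changed the least among the genes that fell. Its normalized counts were 25455, 26559 and 26029 in DMSO, 17058, 16976, 16668 and 17358 with JQ1, and 21700, 21671 and 21275 with I-BET 762. The 3 groups were fully separate, in the order DMSO, I-BET 762, JQ1. The mean was 26014 ± 552 (SD, n = 3) in DMSO, 17015 ± 283 (n = 4) with JQ1 and 21549 ± 237 (n = 3) with I-BET 762. The log2 difference was -0.61 ± 0.04 with JQ1 (SE, limma adjusted p = 2.21e-09), a fold change of 1.53 that lies just past the threshold of 1.5. With I-BET 762 it was -0.27 ± 0.04 (adjusted p = 7.62e-05), a 1.21-fold difference that the fold threshold leaves uncalled. Of all tested genes, 23.0% had a lower log2 fold change than SPARC with JQ1, so the fall of SPARC was precise but not deep.

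THBS2, the close relative of THBS1 with the same domain plan, was at or under the floor in every library. It had no read in the 3 DMSO libraries, 1 read in 1 of the 4 JQ1 libraries, and 1 read in each of 2 of the 3 I-BET 762 libraries. No change can be read from it, and a difference between groups was not detectable at this depth.

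LOX, the enzyme that cross-links elastin and collagen (chr5:122063195-122078413, minus strand), was low and fell with both inhibitors. Its normalized counts were 42.6, 37.0 and 31.9 in DMSO, 17.6, 10.9, 13.0 and 14.2 with JQ1, and 11.8, 11.03 and 14.8 with I-BET 762. All DMSO libraries were above all treated ones, and the treated groups overlapped. The mean was 37.1 ± 5.38 (SD, n = 3) in DMSO, 13.9 ± 2.80 (n = 4) with JQ1 and 12.5 ± 1.97 (n = 3) with I-BET 762. The log2 differences were -1.36 ± 0.26 (SE, limma adjusted p = 0.000214) and -1.50 ± 0.28 (adjusted p = 0.000245). SRFBP1 on the opposite strand shares 2.47% of the exon length of LOX and was at 982 to 1818 normalized counts, and its part in the low LOX values was not tested.

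FN1, which encodes fibronectin (chr2:215360440-215436073, minus strand), rose from a low level. Its normalized counts were 55.2, 38.8 and 64.6 in DMSO, 73.6, 102, 95.04 and 146 with JQ1, and 83.6, 90.2 and 100.4 with I-BET 762. All treated libraries were above all DMSO libraries. The mean was 52.9 ± 13.0 (SD, n = 3) in DMSO, 104 ± 30.4 (n = 4) with JQ1 and 91.4 ± 8.45 (n = 3) with I-BET 762, or 1.97-fold and 1.73-fold higher. The log2 differences were 0.95 ± 0.21 (SE, limma adjusted p = 0.000827) and 0.80 ± 0.23 (adjusted p = 0.00616). The spread was wide for its level, with a coefficient of variation of 24.7% in DMSO and 29.2% with JQ1. Replicate 20 gave the highest JQ1 value. Without it, the log2 difference of JQ1 from DMSO was 0.78 (adjusted p = 0.00276). Without DMSO replicate 14, the lowest DMSO library, the differences were 0.75 (adjusted p = 0.00758) with JQ1 and 0.60 (adjusted p = 0.0389) with I-BET 762, the latter just past the fold threshold. Even after the rise, FN1 stood at only 67 to 144 reads per JQ1 library.

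FBN1, the main microfibril protein (chr15:48408313-48645721, minus strand), had normalized counts of 742, 727 and 683 in DMSO, 647, 615, 640.3 and 849.9 with JQ1, and 886, 947 and 920.4 with I-BET 762. All I-BET 762 libraries were above the others, while 3 JQ1 libraries were below DMSO and replicate 20 was above it. The log2 difference was -0.07 ± 0.09 with JQ1 (SE, limma adjusted p = 0.501) with a 95% interval from -0.27 to 0.13. With I-BET 762 it was 0.36 ± 0.10 (adjusted p = 0.0055), 1.28-fold higher and under the fold threshold. Without replicate 20, the JQ1 difference was -0.18 (adjusted p = 0.0196). Replicate 20 was the highest JQ1 library for 5 of the 7 tested matrix genes, and for 26.9% of all tested genes. In the other groups, DMSO replicate 13 was the highest for 4 of the 7 (31.7% of all tested genes) and I-BET 762 replicate 23 for 4 (32.5%).

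FBN2, the fibrillin of developing tissue (chr5:128257909-128659185, minus strand), was near the filter. It had 12, 5 and 4 reads in DMSO, 15, 19, 14 and 12 with JQ1, and 14, 16 and 11 with I-BET 762. All JQ1 normalized counts were above those of DMSO, but the lowest I-BET 762 library, at 10.8, was below the highest DMSO library, at 11.6. The log2 difference was 1.26 ± 0.38 with JQ1 (SE, limma adjusted p = 0.00684) and 1.06 ± 0.40 with I-BET 762 (adjusted p = 0.0315). The call for I-BET 762 was lost without DMSO replicate 14 (log2 difference 0.91, adjusted p = 0.0957), DMSO replicate 15 (0.77, 0.133), I-BET 762 replicate 21 (1.04, 0.0728) or I-BET 762 replicate 22 (0.94, 0.10), and with all genes above 0 tested (1.06, 0.0571).

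ELN, the elastin gene, had 4 reads in 1 DMSO library, 2 reads in 1 JQ1 library and none elsewhere, so a change in it was not detectable at this depth. VCAN had 3, 0 and 0 reads in DMSO, 1, 2, 2 and 2 with JQ1, and 10, 4 and 2 with I-BET 762. Only 2 of the 10 libraries rose above the floor, both of them I-BET 762, and the third I-BET 762 library lay at 2 reads. The pooled reads gave an I-BET 762 to DMSO ratio of 5.66, with an exact 95% conditional binomial interval of 1.62 to 30.3, which covers counting error only and not the spread between libraries. Of the 16 pooled I-BET 762 reads, 10 came from replicate 21, and all 3 DMSO reads came from replicate 13. This ratio therefore leans on single libraries. For JQ1 the ratio was 1.97, with an interval of 0.449 to 11.8.

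**Figure D2:**
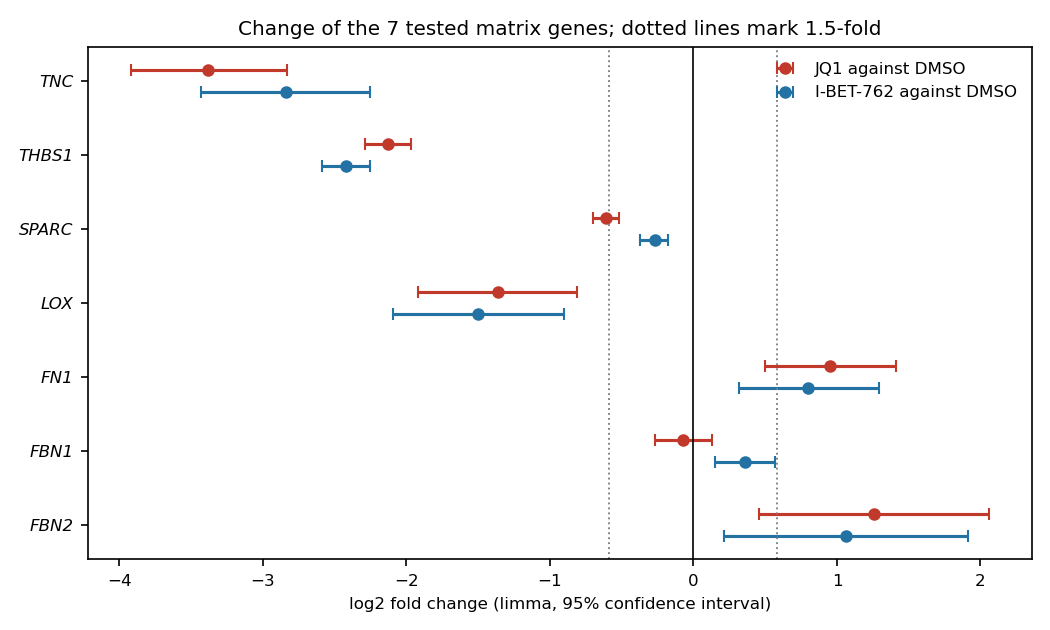
log2 fold change against DMSO (horizontal axis) of the 7 tested matrix genes (rows), with JQ1 in red and I-BET 762 in blue. Points are limma estimates, bars are 95% confidence intervals, and dotted lines mark 1.5-fold. TNC, THBS1 and LOX lie left of the dotted line with both inhibitors, SPARC only with JQ1, and FBN1 lies between the lines with both.

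JQ1 and I-BET 762 were given at the same concentration for the same time, and their libraries are set against each other as 1 pair of compounds. How far each inhibited the BET proteins was not measured in these libraries. Compound and effective dose therefore cannot be told apart. Of the 7 tested matrix genes, 0 were called higher and 0 lower with JQ1 than with I-BET 762 by limma, where 1.73% of all tested genes were called higher and 3.59% lower. At an unadjusted p under 0.05, 3 of the 7 differed, and limma-voom on the recovered reads called 0. The 3 were THBS1, SPARC and FBN1, each past the adjusted threshold but under 1.5-fold. SPARC was lower with JQ1, by a log2 difference of -0.34 (95% interval -0.43 to -0.25, adjusted p = 3.29e-05). FBN1 was also lower with JQ1, by -0.43 (-0.62 to -0.23, adjusted p = 0.00319). THBS1 was higher with JQ1, by 0.29 (0.13 to 0.45, adjusted p = 0.0114), but with libraries rescaled to equal totals the difference was 0.20 (adjusted p = 0.0996), without I-BET 762 replicate 21 it was 0.20 (adjusted p = 0.0883), and with no intensity trend the adjusted p was 0.0566.

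For the other 4 genes no difference between the inhibitors was resolved. The interval for TNC ran from -1.08 to 0.01 around -0.54 (limma adjusted p = 0.137), so its lower end lies at 0.472 times the I-BET 762 level. For LOX it ran from -0.42 to 0.69 around 0.13, for FN1 from -0.30 to 0.60 around 0.15, and for FBN2 from -0.60 to 1.0 around 0.20. The sign of the FN1 difference turned to -0.03 without JQ1 replicate 20.

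**Figure D3:**
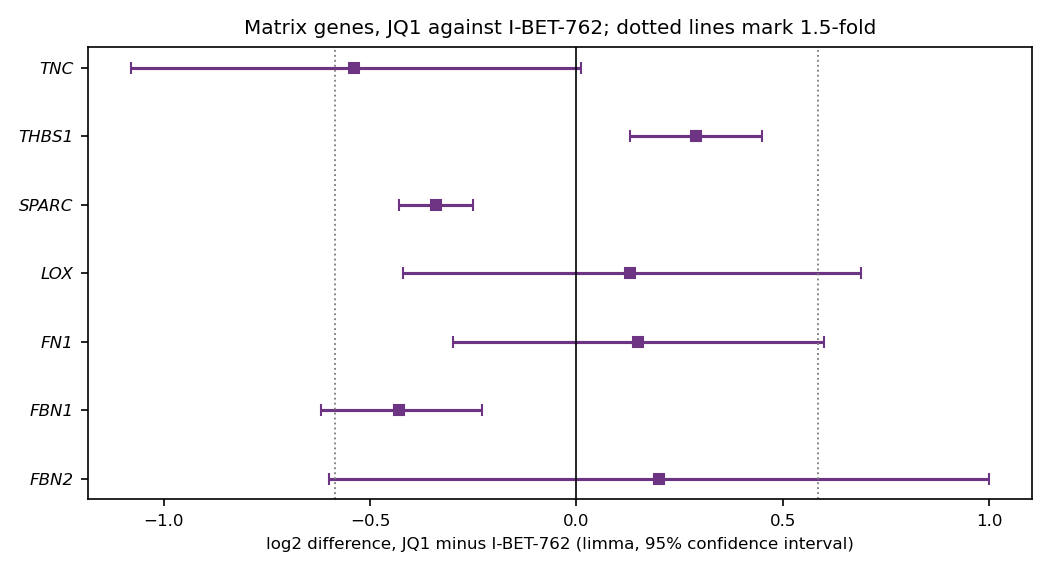
log2 difference of JQ1 minus I-BET 762 (horizontal axis) for the 7 tested matrix genes (rows). Squares are limma estimates, bars are 95% confidence intervals, and dotted lines mark 1.5-fold. The intervals of SPARC and FBN1 lie below 0, that of THBS1 lies above 0, and the rest include 0.

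Levels can be compared between genes only per length, so the mean normalized count was divided by the union exon length in kb (Gencode V44). In DMSO the order was SPARC at 5609 ± 119 normalized counts per kb (SD, n = 3), THBS1 at 994 ± 25.9, FBN1 at 38.7 ± 1.64, TNC at 13.3 ± 0.958, LOX at 6.64 ± 0.962 and FN1 at 3.07 ± 0.758. By this measure each of these was separate from its neighbor in every library, and below FN1 the order of FBN2, ELN, VCAN and THBS2 was not resolved. The union takes in every annotated exon of a gene, 17.22 kb for FN1 and 5.6 kb for LOX. It can exceed the transcripts made in these cells, and the order under other lengths was not tested. SPARC was above 98.9% of the tested genes with a length and THBS1 above 89.6%, whereas FN1 was above only 4.1%. SPARC and THBS1 together made up 99.0 to 99.1% of the summed level per kb of the 10 genes in the DMSO libraries.

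Treatment changed this order in the middle. With JQ1 the fourth rank passed from TNC to FN1, at 6.06 ± 1.77 per kb (n = 4), followed by LOX at 2.49 ± 0.501 and TNC at 1.22 ± 0.370, with TNC overlapping FBN2 at 0.888 ± 0.206. With I-BET 762 FN1 was at 5.31 ± 0.491 (n = 3), LOX at 2.24 ± 0.352 and TNC at 1.79 ± 0.397, and the last 2 overlapped. SPARC, THBS1 and FBN1 kept the first 3 places in all groups. The ratio of SPARC to THBS1 per kb was 5.36 to 5.84 in DMSO, 14.7 to 17.2 with JQ1 and 21.7 to 28.7 with I-BET 762, so these ranges did not overlap. This ratio uses values already described above and is no separate test.

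**Figure D4:**
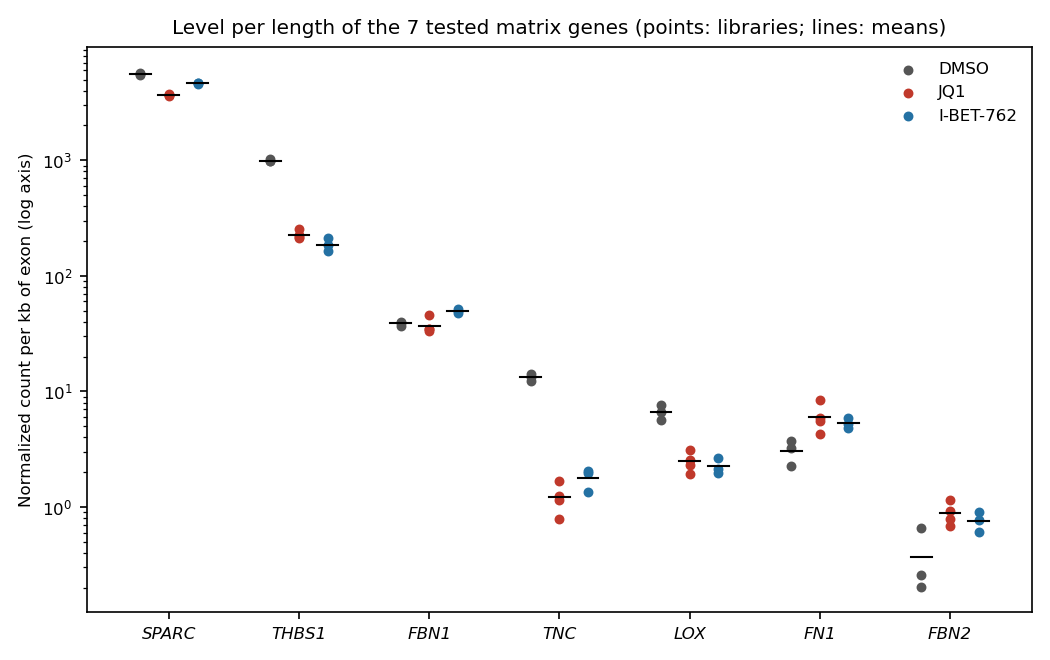
Normalized count per kb of exon (log axis) of the 7 tested matrix genes, by group. Points are libraries and short lines are group means. SPARC lies above THBS1 in every group, TNC drops from above LOX and FN1 in DMSO to below both means in the treated groups, and FN1 rises above LOX.

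Other genes of the same systems were read from 5 lists, whose counts stand beside 22.8% called lower and 13.3% called higher of all tested genes with JQ1, and 17.9% and 8.96% with I-BET 762. Of 22 further matricellular genes, 19 had a row and 10 were tested. With JQ1, 2 of the 10 rose (CCN1 and CCN2, cysteine-rich regulators of adhesion and growth) and 5 fell. With I-BET 762, the same 2 rose and 3 fell. The list's median log2 fold change was -0.58 (JQ1) and -0.46 (I-BET 762), beside 0.01 and 0.00 over all tested genes. CCN2 rose most, from 260 ± 29.1 normalized counts in DMSO (SD, n = 3) to 1825 ± 93.3 with JQ1 (n = 4) and 613 ± 95.3 with I-BET 762 (n = 3). Its log2 differences from DMSO were 2.81 ± 0.10 (SE, limma adjusted p = 6.61e-13) and 1.23 ± 0.10 (adjusted p = 5.02e-08), and JQ1 exceeded I-BET 762 by 1.58 ± 0.10 (adjusted p = 5.74e-08). So CCN2 moved opposite to TNC and THBS1 with both compounds. FSTL1, a secreted SPARC relative with the highest mean normalized count over all libraries in the list, fell by 0.71 with JQ1 (adjusted p = 3.42e-10), and its -0.51 with I-BET 762 (adjusted p = 8.78e-08) stayed under the fold threshold. SPOCK1, a SPARC-family proteoglycan, fell most, by 1.95 (adjusted p = 0.000542) and 1.61 (adjusted p = 0.00522), from a mean of 31.6 normalized counts.

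Of the 19 further elastic fiber genes, 15 were tested, and 10 fell and 0 rose with each inhibitor. These counts stand beside 22.8% and 17.9% of all tested genes called lower. At an unadjusted p under 0.05, 1 was higher with each inhibitor, and limma-voom on the recovered reads called 0 higher with either. Its median log2 fold change was -1.19 (JQ1) and -0.95 (I-BET 762). FBLN2, a fibulin of microfibrils with the highest mean normalized count over all libraries in the list, fell from 8962 ± 174 normalized counts (SD, n = 3) to 4118 ± 331 with JQ1 (n = 4, log2 difference -1.13, limma adjusted p = 7.15e-11) and to 5362 ± 170 with I-BET 762 (n = 3, -0.74, adjusted p = 4.92e-08). LOXL4, a relative of LOX, fell most, from 64.2 ± 12.1 to 9.27 ± 2.61 (log2 difference -2.68, adjusted p = 4.85e-07) and 10.2 ± 2.41 (-2.54, adjusted p = 3.41e-06). LOXL1 and LOXL3 were called lower with both inhibitors as well, and LOXL2 was higher with both, by 0.27 (adjusted p = 0.00185) and 0.40 (adjusted p = 0.000146), under the fold threshold. LOX thus fell along with 3 of its 4 relatives.

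**Figure D5:**
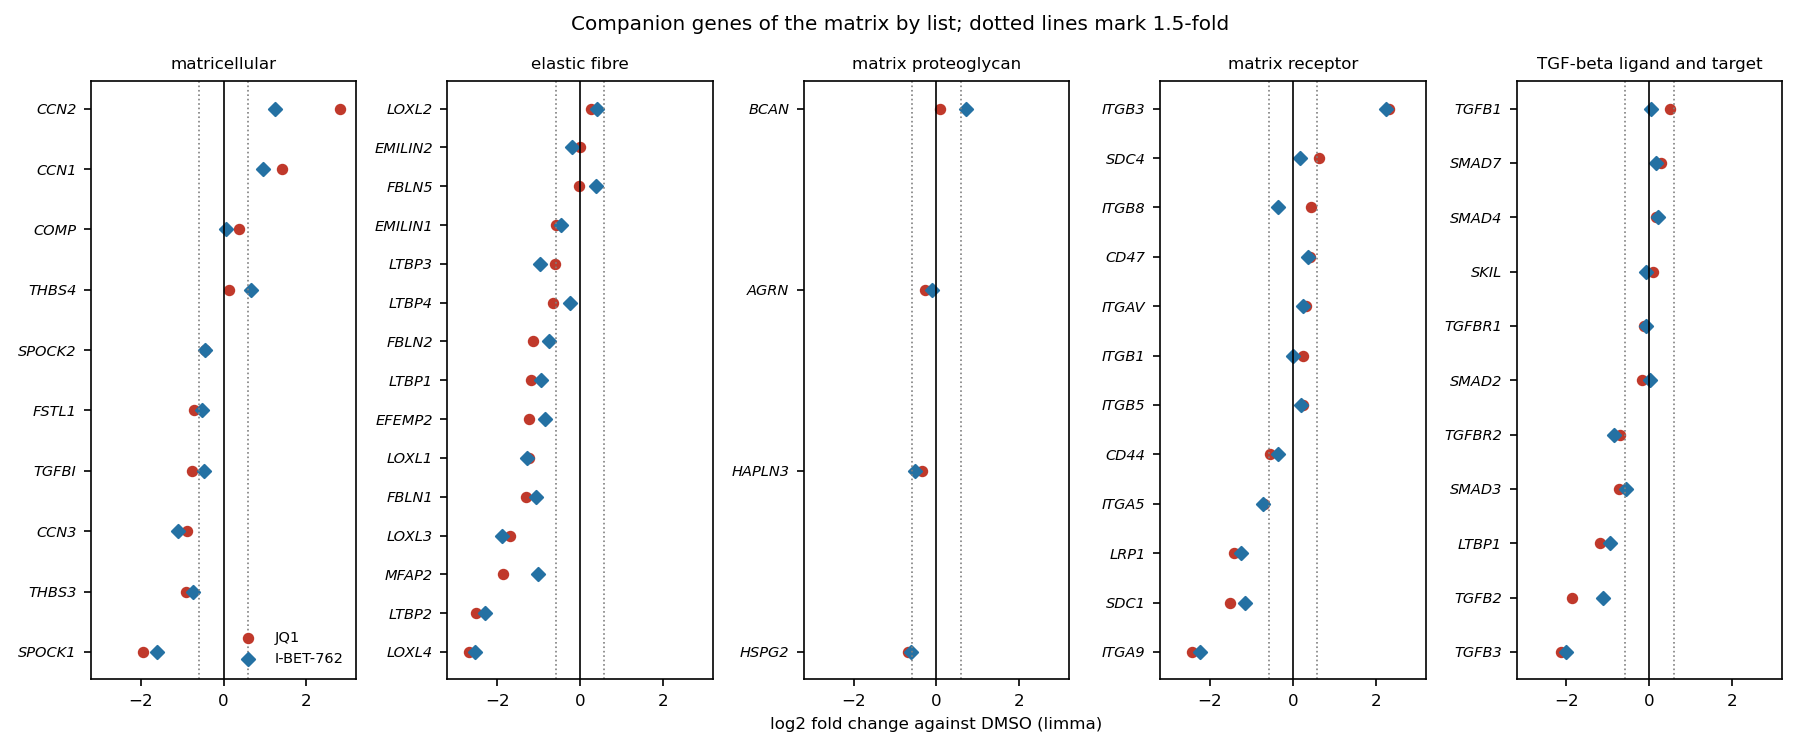
log2 fold change against DMSO (horizontal axes) of the tested genes of 5 lists (panels), with JQ1 as red circles and I-BET 762 as blue diamonds. Dotted lines mark 1.5-fold, without regard to the test. CCN2, CCN1 and ITGB3 stand to the right, and most elastic fiber genes stand to the left.

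Of 14 matrix proteoglycan genes, only 4 were tested. HSPG2, which encodes perlecan, was the 1 gene called, lower by 0.69 with JQ1 (limma adjusted p = 2.69e-05) and by 0.61 with I-BET 762 (adjusted p = 0.000273). Its DMSO libraries ran from 1075 to 1498 normalized counts (mean 1238 ± 228, SD, n = 3). Without the highest of them, both differences lie under the fold threshold, so both HSPG2 calls rest on that library. AGRN, the basement membrane proteoglycan agrin, had the highest mean normalized count over all libraries in the list, though not in DMSO alone, and was at -0.28 (adjusted p = 0.0976) and -0.10 (adjusted p = 0.585). The list's median was -0.32 and -0.31.

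Of 15 matrix receptor genes, 12 were tested. With JQ1, ITGB3 and SDC4 rose and ITGA5, ITGA9, LRP1 and SDC1 fell. With I-BET 762, ITGB3 rose and the same 4 fell. At an unadjusted p under 0.05 and without regard to fold, 6 were higher and 5 lower with JQ1, and 5 higher and 5 lower with I-BET 762. The medians were 0.24 and -0.17. ITGB3, an integrin subunit of receptors for fibronectin, thrombospondin and other RGD ligands, rose from 32.4 ± 2.14 normalized counts in DMSO (SD, n = 3) to 165 ± 10.6 with JQ1 (n = 4, log2 difference 2.31, limma adjusted p = 9.30e-11) and 157 ± 5.38 with I-BET 762 (n = 3, 2.24, adjusted p = 8.47e-10). ITGA9, a subunit of a tenascin C receptor, fell from 218 ± 13.4 to 39.8 ± 5.92 (-2.44, adjusted p = 1.44e-09) and 45.9 ± 5.99 (-2.23, adjusted p = 2.10e-08). ITGA9 thus fell together with TNC. ITGB1, a beta subunit of many integrins with the highest mean normalized count over all libraries in the list, differed by 0.24 (adjusted p = 0.00148) and 0.01 (adjusted p = 0.868).

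The 11 genes of the TGF-beta list that are reported here were all tested, and the list shares LTBP1 with the elastic fiber list. With JQ1, LTBP1, SMAD3, TGFB2, TGFB3 and TGFBR2 fell and 0 rose by limma, with 2 higher at an unadjusted p under 0.05 and 0 by limma-voom. With I-BET 762, LTBP1, TGFB2, TGFB3 and TGFBR2 fell and 0 rose by limma, with 1 higher at an unadjusted p under 0.05 and 0 by limma-voom. The medians were -0.18 and -0.08. TGFB3, a TGF-beta ligand, fell from 303 ± 19.2 normalized counts (SD, n = 3) to 68.9 ± 10.9 with JQ1 (n = 4, log2 difference -2.13, limma adjusted p = 9.23e-09) and 75.8 ± 18.7 with I-BET 762 (n = 3, -2.01, adjusted p = 8.74e-08). SMAD2, a signal transducer with the highest mean normalized count over all libraries in the list, was at -0.18 (adjusted p = 0.00171) and 0.01 (adjusted p = 0.841).

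Markers of cell types moved in the same comparisons. Of 10 smooth muscle markers, 8 were tested, and 6 fell with each inhibitor, where 22.8% (JQ1) and 17.9% (I-BET 762) of all tested genes were called lower. SYNPO2 was called higher with both, but at a mean of 4.02 in DMSO it passed the filter only through treated libraries. Their summed level was 20503 to 21140 normalized counts in DMSO, 10671 to 11290 with JQ1 and 11839 to 12381 with I-BET 762. The 5 epithelial markers summed to 1212 to 1271 in DMSO, 511 to 602 with JQ1 and 497 to 544 with I-BET 762. Among them, KRT19 had means of 741, 246 and 191, and KRT18 of 289, 189 and 207, in the same order. The 5 fibroblast markers summed to 2866 to 2906, 1863 to 2079 and 2360 to 2406 in the same order, with DCN and LUM at no more than 4 and 1 reads. The 4 endothelial markers never exceeded 4 reads, and the leukocyte markers PTPRC and CD68 reached at most 1 and 4. The third leukocyte marker with a row, CD14, was at 28.9 ± 6.40 normalized counts in DMSO (SD, n = 3), 32.5 ± 3.91 with JQ1 (n = 4) and 20.1 ± 2.21 with I-BET 762 (n = 3), and limma called it higher with JQ1 than with I-BET 762 (log2 difference 0.66, adjusted p = 0.0387), a call not made by limma-voom on the recovered reads. The part of these shifts in the matrix results was not tested.

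Genes whose log2 values closely followed a matrix gene over all 10 libraries were taken as a description. For TNC they were NEIL1 (Pearson r = 0.9959), GOLGA2P5 (0.9955) and LPIN3 (0.9943). For THBS1 they were ZNF621 (0.9936), CAPN2 (0.9932) and PLEKHA4 (0.9925), and for FN1 they were PRPF19 (0.9533) and ZNF687 (0.9501). The points fall into treated and untreated clusters, and the size of the step differed between genes of high r. NEIL1, a DNA glycosylase, fell from 285 to 22.9 with JQ1 and 36.7 with I-BET 762 in mean normalized counts, with log2 differences of -3.60 and -2.95, whereas PRPF19, a splicing factor, rose only from 4609 to 5466 and 5476, a smaller relative rise than that of FN1.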

How the data were processed

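Total RNA of SK-UT-1 cells was sequenced as strand-specific libraries. Per the labels and the study's methods, the authors used FastQC 0.73, Trimmomatic, HISAT2 2.2.1, the hg38 build, featureCounts 2.0.3, Gencode V41 and DESeq2 normalization. The strand setting of counting was not given in the sources used here. The deposited values are log2 values of normalized counts plus 1, in 10 columns for the 12 labelled samples. The other 2 samples were not analysed here. In its methods, the study reports leaving out outlier samples after quality checks. Whether these 2 were among them is not stated in the sources used here. If so, the spread behind each p-value leaves them out. Values were converted back to normalized counts, and 99.73 to 99.77% of them were whole reads (within 0.01 reads) after rescaling. Genes with at least 10 normalized counts in at least 3 libraries were tested with limma 3.58.1 in R 4.3.3, with an intensity trend and all 3 groups in 1 model, two-sided, with Benjamini-Hochberg adjustment over 14839 genes. Folds quoted from means are ratios of mean normalized counts. Fold changes on the log2(value + 1) scale understate those of low genes. The limma fit was tested on simulated counts with the same fixed spread for all genes and changes set only in better expressed ones. That test does not cover genes as low as FBN2. The alternatives were other pseudocounts, filters, scalings, thresholds, limma-voom and each library left out. Intervals of pooled reads and the floor of reads cover counting error only, while the limma intervals use its moderated spread between libraries. The 10 members, 5 companion lists and 6 marker lists were chosen with earlier results of these data known. Named genes were all members and, per companion list, the tested gene with the highest mean normalized count and the largest called rise and fall with each inhibitor. For TNC, FN1 and THBS1, the 3 genes of highest correlation were added. A few items, 1 of them in the TGF-beta list and 1 among the genes of highest correlation, are not reported here. CCN1, SDC4, LOXL1 to LOXL3 and the other list genes and markers in the text were picked with their values in view.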

Additional observations from a re-analysis of the deposited data

Results flagged for a closer look

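The FBN1 value of JQ1 replicate 20, 849.9 normalized counts, stood apart from the other 3 JQ1 libraries, which lay between 615 and 647. Its gap to the nearest of them, divided by the range of the group, was 0.862, above Dixon's 95% critical value for 4 libraries. It was the 1 value flagged among 19 genes tested in this way, and chance flags about 1 in 20 such groups. Reads for FBN1 were 589, 565, 640 and 838 in the 4 libraries.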

How the results depend on the processing

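No paired analysis was possible because no replicate number is shared between groups. Of 387 recomputed log2 fold changes of the 7 tested matrix genes, 381 kept their direction and their call, that is, past both the adjusted p and the fold threshold or not. The exceptions were the 5 lost calls of FBN2 given above and the FN1 difference between the inhibitors, which was 0.15 and ranged from -0.03 (without JQ1 replicate 20) to 0.30 over the libraries left out. Some of the 387 could not change direction, because their setting alters only the adjusted p. Such settings were the other filters, no intensity trend, only the 2 groups compared, and a library outside the comparison left out. With genes of a mean of at least 100 normalized counts only, the calls were 2 for JQ1 and 1 for I-BET 762 in place of 6 and 5, since fewer of the genes were tested. With no fold threshold, 3 were called between JQ1 and I-BET 762 in place of 0. Leaving out each library in turn gave 6 calls with JQ1 throughout, 4 to 5 with I-BET 762 and 0 between the inhibitors. Rescaling to equal totals moved the median log2 fold change of all tested genes by -0.183 with JQ1 and -0.096 with I-BET 762. Under it, values carry that shift, and FBN1 with JQ1 was at -0.26 (limma adjusted p = 0.039, range over alternatives 0.0196 to 0.839) and FBN1 with I-BET 762 at 0.26 (adjusted p = 0.0562, range 2.53e-05 to 0.0562). These FBN1 values, FBN1 with JQ1 without JQ1 replicate 20 and the THBS1 difference between the inhibitors (adjusted p 0.00325 to 0.0996) crossed an adjusted p of 0.05 under alternatives, with no call changed since the fold stayed under 1.5. Of 630 recomputed counts for the companion lists, 47 moved by over 1.5 times, of which 16 with no fold threshold and 11 with a threshold of 2-fold. LOX, FBN2 and the treated TNC values rest on 4 to 44 reads per library.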

Other observations

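TAGLN, an actin-binding protein of contractile cells, went from 1599 ± 46.0 normalized counts in DMSO (SD, n = 3) to 126 ± 14.4 with JQ1 (n = 4) and 157 ± 11.7 with I-BET 762 (n = 3). DES, the muscle intermediate filament desmin, went from 187 ± 0.570 to 7.79 ± 5.06 and 20.1 ± 1.47. FAP, a protease used as a fibroblast marker, went from 721 ± 22.5 to 162 ± 12.9 and 255 ± 15.5. These 3 genes were picked with their values in view as steep falls, and limma called each of them lower with both inhibitors. Of the other smooth muscle markers, ACTA2, CALD1, CNN1 and LMOD1 were also called lower with both inhibitors, and SYNPO2 higher. The smooth muscle gene SMTN was higher by 0.19 on the log2 scale with JQ1 (limma adjusted p = 0.0276) and by 0.20 with I-BET 762 (adjusted p = 0.0344), under the fold threshold. The fibroblast marker THY1 was at -0.27 (adjusted p = 0.000226) and -0.03 (adjusted p = 0.701).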
